A study of Mus musculus with 6 samples.

Results

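The serpins are a family of protease inhibitors, and the genes described here are all those whose symbol in the array annotation starts with Serpin. There were 56 such genes of 19057 with a probe, read by 81 of the 34885 probes that carry a single gene symbol. RNA was measured on 6 Illumina mouse BeadChip arrays, 1 for each condition and none with a replicate, in a study that asked how oval cells of a genetic model compare with those of a chemical injury model. EpCAM+ cells, sorted from the non-parenchymal fraction of liver with an antibody to the epithelial surface protein EpCAM, came from DDB1F/F;Alb-Cre+/+ mice of 4 weeks, DDB1F/F;Alb-Cre+/- mice of 6 weeks, DDB1F/F;MX1-Cre+/- mice and mice on a diet with DDC (3,5-diethoxycarbonyl-1,4-dihydro-collidine). Hepatocytes came from DDB1F/F;Alb-Cre+/+ mice and from wild type mice.

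Both F alleles of Ddb1 are flanked by loxP sites in the mutants. Cre is driven by the albumin promoter, active in hepatocytes, in the Alb-Cre lines, and by the interferon-inducible Mx1 promoter in the MX1-Cre line, whose mice the study describes as adults given poly(I:C). The strain of every sample was mixed C57BL/6 x 129. The labels give no genotype for the DDC mice, which the study's methods call wild type, and no age for 4 of the 6 samples. With 1 array each, model, age and mouse cannot be told apart.

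A serpin presents an exposed loop as bait to a protease, which is trapped in a covalent complex when it cuts the loop. Clades A, C, D, F and G are mostly secreted, and the hepatocyte is the main source of those found in plasma, where they restrain elastase, thrombin, plasmin and the complement proteases. Clade B serpins lack a signal peptide and act inside cells. A few members, such as Serpinf1, Serpinh1 and the hormone carriers Serpina6 and Serpina7, do not inhibit proteases.

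In these arrays most of the secreted serpins that could be tested were lower, and Serpinb6a, Serpinb6b and Serpinh1 were higher, in EpCAM+ cells than in hepatocytes. Of 22 serpin genes tested, 13 were called lower and 3 higher (limma, adjusted p under 0.05), where 10.3% of all genes tested were called lower and 11.6% higher. A gene was tested where it was above background on every array of at least 1 fraction. Serpina11, Serpina12, Serpina7, Serpinc1 and Serpinf2 entered through the hepatocyte arrays alone and Serpinb6b through the EpCAM+ arrays alone. That filter favours the direction called for these genes. Over the 12 serpin genes above background on all 6 arrays, 8 were lower and 2 higher, against 593 and 563 of all 6213 genes. Among the secreted genes not called were Serpina10, Serpina6, Serping1 and Serpina3f. The largest decreases were those of Serpina1e (log2 -6.68), Serpina3n (log2 -5.69), Serpinf2 (log2 -5.23) and Serpinf1 (log2 -5.04). The EpCAM+ arrays also differed among themselves, with 11 serpin genes over 4-fold apart on these 4 arrays, Serpinb1a and Serpinb6b among them.

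The labels give the tissue of all samples as mammary, while the study describes liver cells. Of 14 hepatocyte markers with a probe, 12 were above background in Alb-Cre+/+ hepatocytes and 12 in wild type hepatocytes, and 9 of 10 cholangiocyte markers tested were higher in EpCAM+ cells than in hepatocytes. A probe counts as above background where its detection p, set against negative control probes, is under 0.05. The lowest normalized signal above background ran from 110 in DDC EpCAM+ cells to 159 in wild type hepatocytes, so this limit differed between arrays. Between 7407 genes in wild type hepatocytes and 10264 in DDC EpCAM+ cells were above background, and the mean signal before normalization lay between 309 (Alb-Cre+/+ EpCAM+ cells) and 713 (Alb-Cre+/+ hepatocytes). The arrays measure RNA of many cells together, so fewer cells of a type and less RNA per cell cannot be told apart.

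The 5 Serpina1 genes on chromosome 12, which encode mouse forms of alpha-1 antitrypsin, fell together, and their promoters are shown because they are nearly the same. In RefSeq (GRCm38.p6) each holds, upstream of the annotated start, a stretch of 86 bases on the minus strand that ends shortly after GTTAAT, the core letters of the binding motif of the liver factor HNF1. These letters are in capitals.
Serpina1a, chr12:103863625-103863710: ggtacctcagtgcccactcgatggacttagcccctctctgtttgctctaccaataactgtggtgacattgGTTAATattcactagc
Serpina1b, chr12:103738200-103738285: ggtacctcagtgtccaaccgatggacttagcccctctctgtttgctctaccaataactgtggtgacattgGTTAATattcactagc
Serpina1c, chr12:103904962-103905047: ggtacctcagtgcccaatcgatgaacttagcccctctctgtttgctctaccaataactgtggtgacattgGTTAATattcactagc
Serpina1d, chr12:103773634-103773719: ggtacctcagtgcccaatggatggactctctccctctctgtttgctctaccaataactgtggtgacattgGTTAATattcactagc
Serpina1e, chr12:103956960-103957045: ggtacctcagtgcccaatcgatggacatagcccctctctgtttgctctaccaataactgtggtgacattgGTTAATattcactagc
Between any 2 of these windows, 2 to 7 bases differed (identity 91.9% to 97.7% over 10 pairs), and all differences lie before the last stretch that runs into GTTAAT.

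Of the 56 genes, 49 had a promoter entry, the 13 genes called lower and the 3 called higher among them. In the 250 bases before the start, on either strand, GTTAAT was found in 6 of the 13 lower genes (the 5 Serpina1 genes and Serpina7) and in 6.43% of all 32851 promoters. TTGCNNAA, a C/EBP motif, was found in 5 of them (Serpina12, Serpina1b, Serpina1d, Serpina1e and Serpina7) and in 9.56% of all promoters. TGANTCA, an AP-1 motif, was in 4 (Serpina1a to Serpina1d) and in 6.75% of all, and TATAAA was in Serpina7 and in 12.4% of all. CAAAGTCCA, an HNF4 motif, was in none of the 13 and in 0.384% of all promoters. None of the 5 motifs was found in the 3 genes called higher, and no match overlapped that of another motif in a serpin promoter. Over all 49 serpin genes with a promoter, called or not, 9 held GTTAAT, 12 TTGCNNAA, 11 TGANTCA, 12 TATAAA and 0 CAAAGTCCA. The Serpina1 genes share ancestry, so their matches are not independent of each other.

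The promoters of the genes called higher are shown beside that of Serpinf1, with CG dinucleotides in capitals over the 100 bases before the start. In these bases CG occurred 14 times in the Serpinb6a window shown, 3 times each in Serpinb6b and Serpinh1, and 2 times in Serpinf1.
Serpinb6a, chr13:34002795-34002894, minus strand: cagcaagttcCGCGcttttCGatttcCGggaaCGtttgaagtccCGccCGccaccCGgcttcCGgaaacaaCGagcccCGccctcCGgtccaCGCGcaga
Serpinb6b, chr13:32965161-32965260, plus strand: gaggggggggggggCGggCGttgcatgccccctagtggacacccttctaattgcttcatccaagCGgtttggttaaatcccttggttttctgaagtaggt
Serpinh1, chr7:99353240-99353339, minus strand: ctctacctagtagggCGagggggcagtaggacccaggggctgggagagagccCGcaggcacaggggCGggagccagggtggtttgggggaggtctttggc
Serpinf1, chr11:75422624-75422723, minus strand: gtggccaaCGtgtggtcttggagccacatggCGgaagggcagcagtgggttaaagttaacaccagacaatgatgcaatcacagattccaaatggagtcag
In the 250 bases before the start, CG occurred 20 times in this window of Serpinb6a, 11 times in Serpinh1, 3 times in Serpinb6b and 2 times in Serpinf1. Serpinb6a has 2 annotated windows, and the other holds 2. Over all promoters the median was 6, and over the 15 windows of the 13 genes called lower it was 3 (range 0 to 6).

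Of the 56 genes, 30 were above background on at least 1 array, 12 on all 6 arrays and 26 on none. Clade A had 16 of 21 genes above background on some array, and clade B had 7 of 26. On chromosome 12, which carries Serpina10, Serpina6 and the Serpina1 and Serpina3 genes, 15 of 20 members were above background on some array, against 4 of 15 on chromosome 13, all of clade B, and 4 of 12 on chromosome 1, where Serpinc1 stands beside clade B genes. The number above background was 22 for Alb-Cre+/+, 20 for Alb-Cre+/-, 19 for MX1-Cre+/- and 17 for DDC EpCAM+ cells, against 24 in Alb-Cre+/+ and 22 in wild type hepatocytes. As a share of the 56 genes this was 39.3%, 35.7%, 33.9% and 30.4% in the EpCAM+ samples in that order, and 42.9% and 39.3% in the hepatocyte samples. Over all genes the shares were 49.4%, 53.1%, 51.2% and 53.9% in EpCAM+ cells, and 51.7% and 38.9% in hepatocytes, so the DDC sample had the fewest serpin genes and the most genes above background. Serpina4-ps1, Serpina5, Serpina9 and Serpinb3c were above background in hepatocytes only. Serpinb3a, Serpinb3d and Serpine3 were above it on a single EpCAM+ array each, with signals between 115 and 126. Serpini1 and Serpini2, both members of clade I, were not above background on any array.

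**Figure D1:**
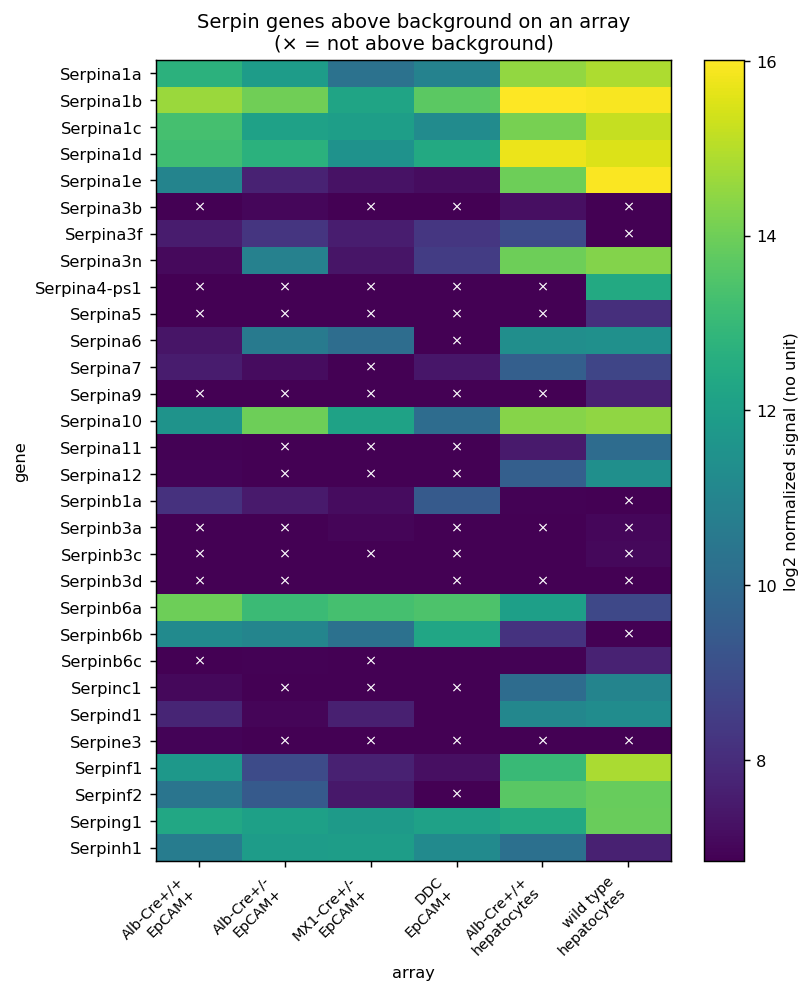
Normalized signal on a log2 scale (colour) of the 30 serpin genes above background on at least 1 array (down the side), on the 4 EpCAM+ and 2 hepatocyte arrays (across). A cross marks a signal not above background, and signals were raised to a floor of 115. The Serpina1 genes, Serpina3n, Serpinf1 and Serpinf2 are bright on both hepatocyte arrays, while Serpinb6a is brighter on every EpCAM+ array.

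Alpha-1 antitrypsin, the product of the Serpina1 genes, inhibits neutrophil elastase. Serpina1a read 6760 for Alb-Cre+/+, 3845 for Alb-Cre+/-, 1258 for MX1-Cre+/- and 1928 for DDC EpCAM+ cells, against 23693 in Alb-Cre+/+ and 30157 in wild type hepatocytes (log2 change -3.25, SE 0.60, limma adjusted p = 0.0068). Serpina1b read 25604, 16791, 4651 and 13299 in the same 4 EpCAM+ samples, against 65977 and 62262 in the 2 hepatocyte samples (log2 -2.33, SE 0.58, limma adjusted p = 0.023). These signals are normalized intensities with no unit, and each log2 change is the mean of the 4 EpCAM+ arrays minus that of the 2 hepatocyte arrays. No EpCAM+ array reached either hepatocyte array for these genes, and Alb-Cre+/+ EpCAM+ cells were the brightest of the 4.

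Serpina1c read 10018, 4348, 4028 and 2454 in EpCAM+ cells in that order, against 17778 and 37972 in Alb-Cre+/+ and wild type hepatocytes (log2 -2.51, SE 0.54, limma adjusted p = 0.013). Serpina1d read 9413, 6577, 2954 and 5435 in EpCAM+ cells, against 54824 and 47514 in hepatocytes (log2 -3.18, SE 0.42, limma adjusted p = 0.0015). Serpina1e read 1994, 212, 158 and 142 in EpCAM+ cells, against 16206 and 63216 in hepatocytes (log2 -6.68, SE 1.04, limma adjusted p = 0.0031). No EpCAM+ array reached either hepatocyte array for these 3 genes. Serpina1b in both hepatocyte samples, and Serpina1e in wild type hepatocytes, were among the 4 brightest of all probes on their array, at 62262 to 65977 where the highest signal was 67065. Their standard error over beads there was 1.22% to 1.68%, against a median of 6.09% over serpin genes above background. The files carry no saturation flag, so whether these probes were saturated was not tested, and their fold changes may be understated. The 5 genes are near-identical copies, and probes of one may also bind RNA of another, so their separate values are uncertain. Where a Serpina1 gene had more than 1 probe above background the probes moved alike, with log2 changes of -3.25 and -3.44 for Serpina1a and of -2.33 to -2.96 for Serpina1b.

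Serpina3n, an acute-phase relative of human antichymotrypsin, differed from the Serpina1 genes in which EpCAM+ array kept the most. It read 134 for Alb-Cre+/+, 1873 for Alb-Cre+/-, 164 for MX1-Cre+/- and 357 for DDC EpCAM+ cells, against 16059 in Alb-Cre+/+ and 20187 in wild type hepatocytes (log2 -5.69, SE 0.93, limma adjusted p = 0.0037). Serpina3f of the same group read 184, 310, 193 and 314 in EpCAM+ cells and 495 in Alb-Cre+/+ hepatocytes, and was not above background in wild type hepatocytes. Its log2 change was 0.02 (SE 0.56, limma adjusted p = 0.98), with a sign that turned under median scaling.

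Serpina10, the protein Z-dependent inhibitor of factor Xa, read 3031 for Alb-Cre+/+, 16337 for Alb-Cre+/-, 4463 for MX1-Cre+/- and 1079 for DDC EpCAM+ cells, against 20631 in Alb-Cre+/+ and 22897 in wild type hepatocytes. Serpina6, the plasma carrier of corticosteroids, read 164, 1575 and 1114 in the 3 mutant EpCAM+ samples in that order and was not above background after DDC, against 2625 and 2808 in hepatocytes. Both genes were below hepatocytes on every EpCAM+ array, yet neither passed the test (log2 -2.47, SE 0.86, limma adjusted p = 0.073 for Serpina10, and log2 -2.67, SE 1.02, limma adjusted p = 0.096 for Serpina6). The EpCAM+ arrays lay 15.1-fold apart for Serpina10 and at least 13.7-fold apart for Serpina6, and Alb-Cre+/- cells were the brightest in each case. Macrophage markers also stood out in that sample: 10 of 11 were above background in Alb-Cre+/- EpCAM+ cells, with a summed signal of 11255, against 3 or 4 markers and sums of 2064 to 2984 in the other 3 EpCAM+ samples. The study sorted EpCAM+ cells from the DDB1F/F;Alb-Cre+/+ liver as negative for the macrophage antigen F4/80. Hepatocyte markers stood out there too: of 11 above background in EpCAM+ cells, 8 were brightest in Alb-Cre+/- cells. MX1-Cre+/- cells, with the macrophage sum of 2064, read 4463 for Serpina10 and 1114 for Serpina6. The part of other cells in these values was not tested.

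**Figure D2:**
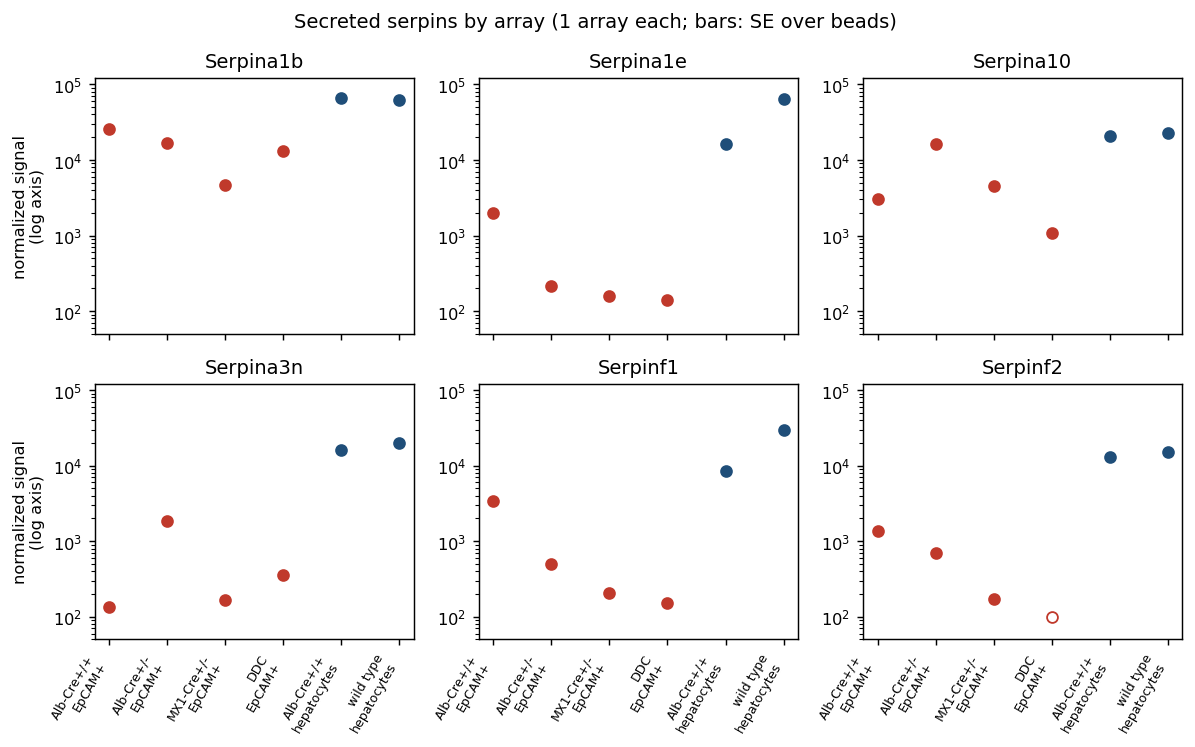
Normalized signal (log axis) of 6 secreted serpins on each of the 6 arrays, with EpCAM+ cells in red and hepatocytes in blue. Each point is 1 array, an open point was not above background, and bars (the standard error over the beads of a probe) are mostly smaller than the points. Alb-Cre+/+ EpCAM+ cells are the brightest EpCAM+ sample for Serpina1b, Serpina1e, Serpinf1 and Serpinf2, and Alb-Cre+/- EpCAM+ cells for Serpina10 and Serpina3n.

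Serpinf1, or pigment epithelium-derived factor, is a secreted non-inhibitory serpin known as an inhibitor of blood vessel growth. It read 3388 for Alb-Cre+/+, 493 for Alb-Cre+/-, 207 for MX1-Cre+/- and 150 for DDC EpCAM+ cells, against 8412 in Alb-Cre+/+ and 29444 in wild type hepatocytes (log2 -5.04, SE 1.13, limma adjusted p = 0.015). Its EpCAM+ arrays lay 22.5-fold apart, the widest among serpin genes above background on all 4. A second probe for Serpinf1, above background on 2 arrays, gave a log2 change of 0.02, so the decrease rests on the probe above background on all 6. Serpinf2, or alpha-2 antiplasmin, its neighbour on chromosome 11 and the main inhibitor of plasmin, read 1364, 698 and 172 in the 3 mutant EpCAM+ samples in that order and was not above background after DDC, against 12897 and 15019 in hepatocytes (log2 -5.23, SE 0.90, limma adjusted p = 0.0049). All 3 probes of Serpinf2 gave a decrease, the other two with log2 changes of -4.71 and -4.91.

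The serpins that restrain thrombin were also lower. Serpinc1, antithrombin, read 132 in Alb-Cre+/+ EpCAM+ cells and was not above background in the other 3 EpCAM+ samples, against 1084 in Alb-Cre+/+ and 2004 in wild type hepatocytes (log2 -3.63, SE 0.34, limma adjusted p = 3.3e-04). Serpind1, heparin cofactor II, read 220 for Alb-Cre+/+, 125 for Alb-Cre+/-, 200 for MX1-Cre+/- and 113 for DDC EpCAM+ cells, against 2153 and 2549 in hepatocytes (log2 -3.89, SE 0.40, limma adjusted p = 4.8e-04). Among serpin genes these had the smallest adjusted p, and for both the gap between fractions was wider than the range within either. The 3 EpCAM+ signals of Serpinc1 not above background, and the Serpind1 signal after DDC, stood at the floor. This narrows the spread among EpCAM+ arrays, mainly for Serpinc1, so the rank of these p-values is no sign of a firmer result.

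Serpina12, or vaspin, known as a secreted product of fat tissue, read 122 in Alb-Cre+/+ EpCAM+ cells and was not above background in the other 3, against 779 in Alb-Cre+/+ and 2713 in wild type hepatocytes (log2 -3.64, SE 0.47, limma adjusted p = 0.0013). Serpina11 read 120 in Alb-Cre+/+ EpCAM+ cells and was not above background in the other 3, against 183 and 1079 in hepatocytes (log2 -1.94, SE 0.57, limma adjusted p = 0.043). Serpina7, the thyroxine carrier, lies on the X chromosome. It read 185 in Alb-Cre+/+, 141 in Alb-Cre+/- and 170 in DDC EpCAM+ cells and was not above background in MX1-Cre+/- cells, against 777 and 432 in hepatocytes (log2 -1.95, SE 0.35, limma adjusted p = 0.0058). A second Serpina7 probe, above background in Alb-Cre+/+ hepatocytes alone, gave a log2 change of -0.47. Changes of genes near background are understated, since dim signals stand at the floor.

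**Figure D3:**
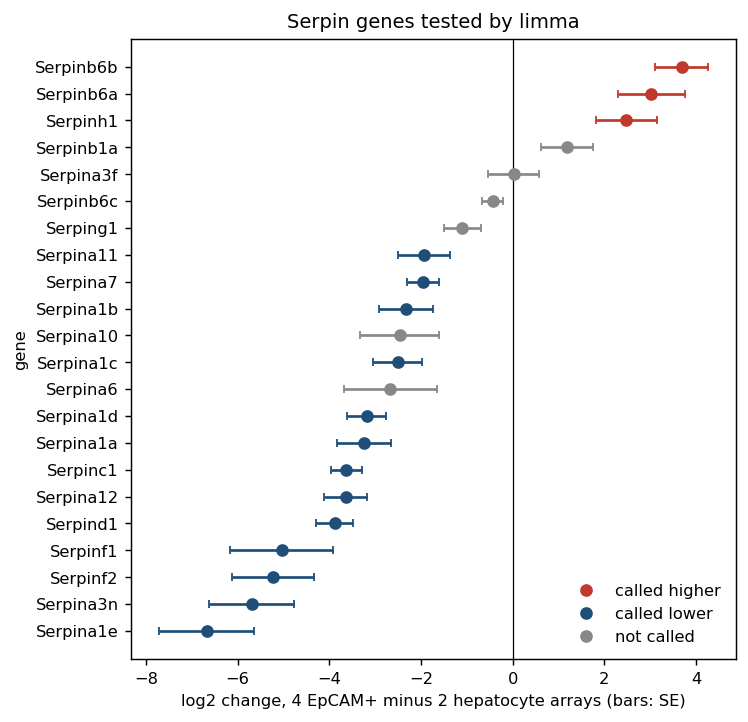
Log2 change (4 EpCAM+ minus 2 hepatocyte arrays, horizontal axis) of the 22 serpin genes tested (vertical axis), with bars for the standard error from limma. The 13 genes called lower are in blue, from Serpina11 at -1.94 to Serpina1e at -6.68, the 3 called higher in red, and the 6 that were not called in grey.

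Among the clade B serpins, which act inside cells, Serpinb6a and Serpinb6b rose. Serpinb6a, the mouse counterpart of the human cathepsin G inhibitor PI-6, read 16240 for Alb-Cre+/+, 8647 for Alb-Cre+/-, 10182 for MX1-Cre+/- and 11306 for DDC EpCAM+ cells, against 4181 in Alb-Cre+/+ and 457 in wild type hepatocytes (log2 3.03, SE 0.73, limma adjusted p = 0.020). Serpinb6b read 2374, 2095, 1223 and 4982 in EpCAM+ cells in that order and 288 in Alb-Cre+/+ hepatocytes, and was not above background in wild type hepatocytes (log2 3.69, SE 0.58, limma adjusted p = 0.0032). The EpCAM+ arrays did not overlap the hepatocyte arrays for either gene. Of the 4 probes of Serpinb6a, only the probe read here was above background on any array, so the rise rests on it. With the mean of all probes Serpinb6a was not called (log2 0.76, limma adjusted p = 0.085).

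Serpinb1a, an inhibitor of the neutrophil proteases elastase and cathepsin G, read 284 for Alb-Cre+/+, 184 for Alb-Cre+/-, 141 for MX1-Cre+/- and 693 for DDC EpCAM+ cells and 121 in Alb-Cre+/+ hepatocytes, and was not above background in wild type hepatocytes. Its difference between fractions did not pass the test (log2 1.18, SE 0.56, limma adjusted p = 0.16). Serpinb6c stayed close to background on every array, with signals between 104 and 209. The remaining clade B genes were above background on at most 1 array.

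Serpinh1, also called HSP47, is a chaperone of collagen in the endoplasmic reticulum. It read 1647 for Alb-Cre+/+, 3880 for Alb-Cre+/-, 3979 for MX1-Cre+/- and 2415 for DDC EpCAM+ cells, against 1212 in Alb-Cre+/+ and 208 in wild type hepatocytes (log2 2.48, SE 0.67, limma adjusted p = 0.030). A second Serpinh1 probe gave a log2 change of 0.72. Of 4 genes of collagen and its folding that could be tested, Col4a1, a basement membrane collagen, rose (log2 2.09, limma adjusted p = 0.026) and the other 3 did not pass. Col1a1 was not above background on any array. Of the 4 stellate cell and fibroblast markers tested, Rgs5 rose and Des fell.

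Serping1, the C1 inhibitor of complement and contact activation, did not pass the test. It read 5137 for Alb-Cre+/+, 4281 for Alb-Cre+/-, 3660 for MX1-Cre+/- and 4304 for DDC EpCAM+ cells, against 5466 in Alb-Cre+/+ and 15610 in wild type hepatocytes (log2 -1.10, SE 0.40, limma adjusted p = 0.085). The 4 EpCAM+ arrays lay within 1.40-fold of each other, all below both hepatocyte arrays.

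**Figure D4:**
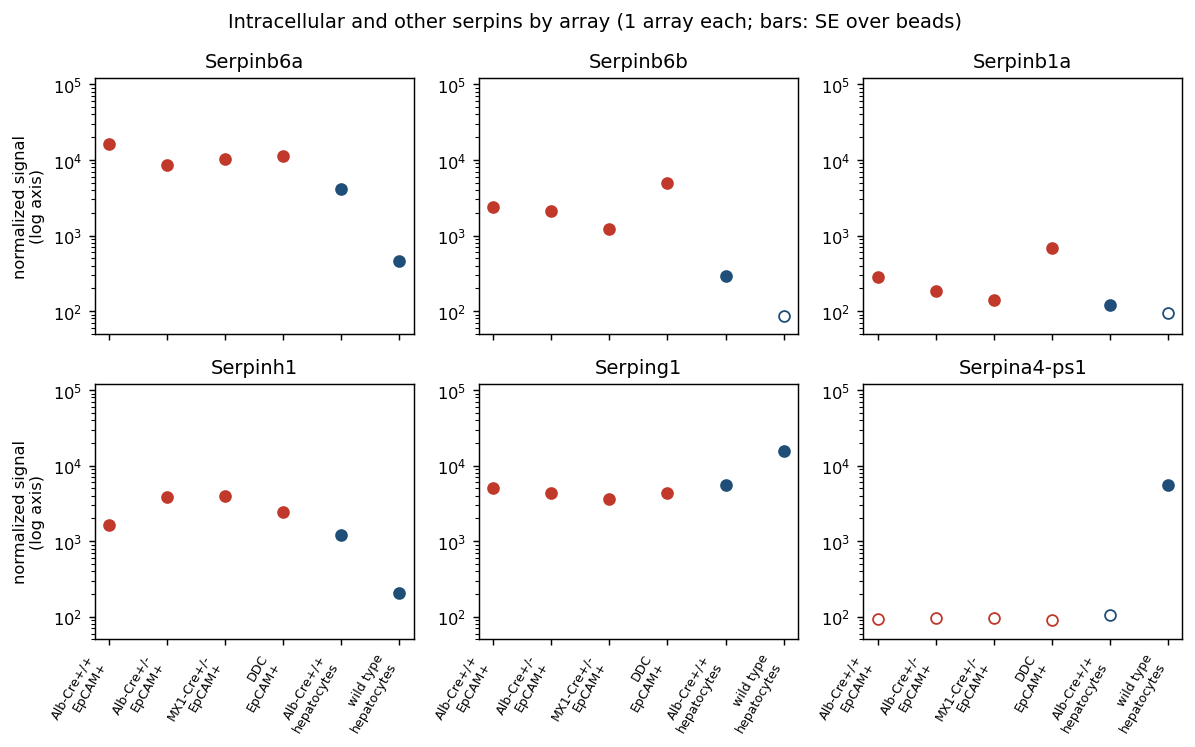
Normalized signal (log axis) of 3 clade B serpins, Serpinh1, Serping1 and Serpina4-ps1 on each array, with EpCAM+ cells in red and hepatocytes in blue. Each point is 1 array, an open point was not above background, and bars are the standard error over beads. Serpinb6a and Serpinh1 are higher in Alb-Cre+/+ than in wild type hepatocytes, and Serpina4-ps1 is above background in wild type hepatocytes alone.

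The calls between fractions depended on the wild type hepatocyte array. Without it none of the 3 genes kept its call as higher and 5 of 13 kept theirs as lower (Serpina11, Serpina12, Serpina7, Serpinc1 and Serpind1), and the log2 change of Serpinb6a was 1.43 and that of Serpinh1 1.21. Other genes lost their call with a log2 change near that over all arrays, at -3.07 for Serpina1a, -2.37 for Serpina1b, -3.29 for Serpina1d, -5.53 for Serpina3n, -5.12 for Serpinf2 and 3.03 for Serpinb6b. Serpina11 kept its call at a log2 change of -0.65. The genes that kept a call without the wild type array each had an EpCAM+ signal at the floor, which can narrow the spread. For Serpind1 it did so only slightly, with 113 after DDC raised to 115. Serpinf2 also had a signal at the floor, after DDC, and lost its call. Why some calls were kept was not tested, and a kept call there is not taken as a firmer result. Without the Alb-Cre+/+ hepatocyte array, 7 of the 13 lower genes and all 3 higher ones kept their call. Each array is a different condition, so the spread in these tests is that between models and not between replicates. An exact permutation test of 4 against 2 arrays has 15 splits and cannot give a two-sided p under 0.067. By position alone, 16 of the 22 genes had every EpCAM+ array below both hepatocyte arrays and 4 had every one above (20% and 26.4% of all genes tested). The median log2 change was -2.49 over the 22 serpin genes and 0.09 over all 8892 genes tested. The position counts and this median include genes that entered the test through 1 fraction alone. Over genes above background on all 6 arrays, the median was -2.85 for 12 serpin genes and 0.007 for all 6213.

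Single arrays against wild type hepatocytes gave much the same genes. More than 2-fold lower were 18 of 26 serpin genes in Alb-Cre+/+ EpCAM+ cells (17% of all genes), 16 of 26 in Alb-Cre+/- (14.8%), 18 of 27 in MX1-Cre+/- (14.7%) and 18 of 25 in DDC EpCAM+ cells (15.5%). Serpina10 and Serpina6 made the difference between Alb-Cre+/- cells and the rest. Higher by that measure were 3 serpin genes in Alb-Cre+/+ (18.8% of all genes), 3 in Alb-Cre+/- (17.4%), 3 in MX1-Cre+/- (18%) and 4 in DDC EpCAM+ cells (17.5%). In each sample they were Serpinb6a, Serpinb6b and Serpinh1, joined after DDC by Serpinb1a, at least 4.35-fold higher. These comparisons share the wild type hepatocyte array and carry no test. Against hepatocytes of their own genotype, Alb-Cre+/+ EpCAM+ cells had 14 of 25 serpin genes more than 2-fold lower (12.6% of all genes) and 3 higher, Serpinb1a, Serpinb6a and Serpinb6b (14.4%).

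By rank alone, the brightest EpCAM+ sample was mostly not the same for secreted serpins and hepatocyte markers. It was the Alb-Cre+/+ sample for 13 of the 16 serpin genes below both hepatocyte arrays and for 2 of the 11 hepatocyte markers above background in EpCAM+ cells, and the Alb-Cre+/- sample for 3 serpin genes (Serpina10, Serpina3n and Serpina6) and 8 markers, among them Apoa1, Ttr and Arg1. For Serpina11, Serpina12 and Serpinc1 the other 3 EpCAM+ samples were not above background. Some margins were narrow: 185 against 170 (DDC) for Serpina7, 220 against 200 (MX1-Cre+/-) for Serpind1 and 5137 against 4304 (DDC) for Serping1. Others were wide, as for Serpinf1 with 3388 against 493 (Alb-Cre+/-). Among the markers, Pck1 had 172 (Alb-Cre+/-) against 155 (Alb-Cre+/+). The 5 Serpina1 genes may share signal between probes and are not separate counts. These counts are a description and were not tested.

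DDB1F/F;Alb-Cre+/+ hepatocytes lacked part of the wild type serpin signal. Of 27 serpin genes, 8 were more than 2-fold lower in Alb-Cre+/+ than in wild type hepatocytes and 3 were higher, where 8.47% of all genes were lower and 9.17% higher. Hepatocyte markers were mostly lower as well. Among genes above background in wild type hepatocytes, the median signal was 48.8% of wild type over 12 such markers and 67.8% over 22 serpin genes. Serpina4-ps1, annotated as a pseudogene, read 5470 in wild type hepatocytes and was not above background in Alb-Cre+/+ hepatocytes, a difference of at least 47.7-fold. Serpina11 was 5.90-fold, Serpina1e 3.90-fold, Serpinf1 3.50-fold, Serpina12 3.48-fold, Serping1 2.86-fold and Serpina1c 2.14-fold lower in Alb-Cre+/+ hepatocytes. Serpina5, the protein C inhibitor, was at least 2.36-fold lower. Serpina1a, Serpina10, Serpina3n, Serpina6, Serpind1 and Serpinf2 were at most 1.27-fold apart between the 2 hepatocyte samples. Serpina1b was at the top of the scale in both, and Serpina1e in wild type.

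Serpinb6a was 9.14-fold, Serpinh1 5.82-fold and Serpina3f at least 3.11-fold higher in Alb-Cre+/+ hepatocytes. Summed signals of cholangiocyte, macrophage and endothelial markers, and of stellate cell and fibroblast markers, were higher in that sample as well. Of 11 cholangiocyte markers, 10 were above background in Alb-Cre+/+ hepatocytes and 4 in wild type hepatocytes, with summed signals of 14441 and 3688. Of 11 macrophage markers, 10 were above background in Alb-Cre+/+ and 6 in wild type hepatocytes, with sums of 10320 and 2973. Of 12 endothelial markers, 12 were above background in Alb-Cre+/+ and 7 in wild type hepatocytes, with sums of 17814 and 3890. Of 12 stellate cell and fibroblast markers it was 9 and 3, with sums of 6022 and 2214. The counts above background were taken at unlike limits. The lowest signal above background was 115 in Alb-Cre+/+ and 159 in wild type hepatocytes. The sum of erythroid and platelet markers went the other way, at 973 and 2945. The part of other cells in the higher serpin signals was not tested.

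The genetic and diet models were compared by the 3 mutant EpCAM+ arrays against the single DDC array. None of 19 serpin genes was called by limma in either direction, where 0.00957% of all genes were called higher and 0.842% lower. At an unadjusted p under 0.05 limma had 1, Serpinb1a (log2 -1.83, SE 0.43, limma adjusted p = 0.37). Its mean log2 signal was 7.60 in the mutants and 9.44 after DDC. Serpinb6b was likewise lower in the mutants on average and not called (log2 -1.45, SE 0.68, limma adjusted p = 0.79).

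Taken 1 array at a time against DDC, the models differed in which secreted serpins were higher. Alb-Cre+/+ EpCAM+ cells had 6 of 23 serpin genes more than 2-fold higher (7.68% of all genes) and 3 lower (7.62%), counts that became 13 and 1 with median scaling. Higher were Serpinf1 (22.5-fold), Serpina1e (14.1-fold), Serpinf2 (at least 12.4-fold), Serpina1c (4.08-fold), Serpina1a (3.51-fold) and Serpina10 (2.81-fold). Alb-Cre+/- cells had 5 of 20 higher (5.65%) and 2 lower (4.46%), the higher ones being Serpina10 (15.1-fold), Serpina6 (at least 14.3-fold), Serpinf2 (at least 6.32-fold), Serpina3n (5.24-fold) and Serpinf1 (3.28-fold). MX1-Cre+/- cells had 2 of 21 higher (5.09%), Serpina6 (at least 10.1-fold) and Serpina10 (4.14-fold), and 4 lower (4.54%), Serpinb1a, Serpinb6b, Serpina1b and Serpina3n. Serpina10 was higher in all 3 mutant samples, and Serpinb1a and Serpinb6b were lower in all 3, by 2.10-fold to 4.90-fold. The 3 comparisons share the DDC array, and the share of all genes that went 1 way in all 3 was not counted. The same direction in all 3 is therefore a description only.

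Proteases that serpins act on, and inhibitors of other families, were counted in the same comparison, in which 10.3% of all genes tested were called lower and 11.6% higher. Of 21 protease and partner genes tested, 11 fell in EpCAM+ cells against hepatocytes and 3 rose, with a median log2 change of -2.07. The largest decreases were in coagulation factor X (F10, log2 -7.18), factor XI (F11, log2 -5.69), prothrombin (F2, log2 -5.09) and factor XII (F12, log2 -4.99). St14 (matriptase, log2 2.46), the urokinase receptor gene Plaur (log2 1.65) and Prss8 (prostasin, log2 1.21) rose. Of 21 inhibitors of other families, 8 fell, led by Itih3 (log2 -6.23), Mug1 (log2 -5.86), Mug2 (log2 -5.01) and Itih4 (log2 -4.79), and 3 rose, Spint1 (log2 5.10), Timp2 (log2 4.15) and Wfdc2 (log2 3.69). Spint1 encodes an inhibitor of matriptase, the product of St14, and Timp2 an inhibitor of matrix metalloproteinases. For comparison, 11 of 12 hepatocyte markers tested fell and none rose, and no endothelial marker of 9 or macrophage marker of 6 passed the test. That test pools the EpCAM+ arrays, among which summed endothelial signals ran from 3237 (DDC) to 35293 (Alb-Cre+/-).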

How the data were processed

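RNA of 6 liver cell samples was hybridized to 6 arrays that share 1 Illumina mouse BeadChip number in the file headers, which say nothing of labelling or scanning. Positions A and B held hepatocytes and positions C to F EpCAM+ cells, so position and cell fraction cannot be told apart. Per the file headers and the study's methods, the authors deposited for each probe a signal intensity summarised over its beads by GenomeStudio, a detection p-value against negative control probes, a standard error and a count of beads. The authors also deposited intensities quantile normalized across arrays, which were used here as the main values. Per array, the median bead error lay between 5.65% and 6.13% of the signal, and 1.22% to 10.8% for serpin genes above background (median 6.09%). It covers beads and not animals.

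Signals were raised to a floor of 115, the median of the lowest signals above background, and taken to log2. One probe was read per gene, that above background on most arrays and then the brightest. Of 45281 probes, 34885 had 1 gene symbol, 18 several and 10378 none. limma 3.58.1 in R 4.3.3 (lmFit, eBayes with trend, Benjamini-Hochberg) was used to set the 4 EpCAM+ arrays against the 2 of hepatocytes, for genes detected throughout 1 fraction, and the 3 mutant EpCAM+ samples against DDC, a lone array assumed to vary like the others, in a fit of 3 groups. The code was tested on simulated data. Folds over 2 between single arrays carry no test, and where 1 array was not above background the fold is a lower bound. The dim side then stands at that array's lowest detected signal, or at the gene's own where higher. Folds between EpCAM+ arrays in the account of their spread were taken against the common floor. Alternatives were other normalizations, background correction, floor, detection threshold, probe rule, filters, array weights and each array left out. Members, gene lists and tests were chosen with earlier results of these data known. Named array by array were genes called by limma, genes over 4-fold apart among EpCAM+ or between hepatocyte arrays, and Serpinf1, with further genes chosen after their values were seen. Promoters are RefSeq entries of GRCm38.p6. Lymphocyte and neutrophil markers could not be tested (0 of 10 passed the filter), and of 2 erythroid and platelet markers tested, Pf4 rose.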

Additional observations from a re-analysis of the deposited data

Results flagged for a closer look

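The 4 EpCAM+ arrays were checked for a sample far from the others in 20 serpin genes. Chance gives about 1 in 20 groups, or 1 here. For Serpina1e the gap to the nearest sample was 0.848 of the whole range on the log2 scale, with 1994 in Alb-Cre+/+ EpCAM+ cells and at most 212 in the other 3. For Serpina11, Serpina12 and Serpinc1 it was 1, a value fixed by the floor at which the other 3 samples stood, so that Serpina1e alone remains. Whether that is more than chance gives cannot be told from genes so chosen. The signals of these 3 genes in Alb-Cre+/+ EpCAM+ cells, 120 to 132, were themselves close to background.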

How the results depend on the processing

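No paired analysis was possible because each condition is a single array. Between EpCAM+ cells and hepatocytes, the 3 serpin genes higher became 1 with the mean of all probes and 0 with no detection filter, and the 13 lower became 4 with no detection filter and 8 over genes above background on all 6 arrays. The fits with fewer or more genes change which genes can be called. Leaving out 1 array gave 0 to 3 higher and 5 to 13 lower. Serpina11 lost its call without any one EpCAM+ array, at log2 changes of -1.95 to -1.93, and Serpinh1 without the MX1-Cre+/-, DDC or Alb-Cre+/- EpCAM+ array, at 2.31 to 2.55. Serpinb6a lost it without Alb-Cre+/+ EpCAM+ cells (2.85, limma adjusted p = 0.054) and Serpina1b without DDC (-2.35, limma adjusted p = 0.052). With median scaling, 15 were lower, with Serpina10, Serpina6 and Serping1 gained and Serpina11 lost. That scaling put the median of all genes at -0.07 in place of 0.09, and 43% of calls over all genes were higher, against 53% before. Over serpin genes, 285 of 341 alternative values kept direction and side of the threshold, 45 lost their call, 6 gained one and 5 reversed. The 5 were all of Serpina3f: -0.35 with median scaling, -0.075 with detection p under 0.01, and 3 below 0 among -1.03 to 1.08 with 1 array left out. For the mutants against DDC, 0 serpin genes were called under every alternative run, 0 to 0 with an array left out. There 280 of 295 values kept their direction and 15 reversed, none of them called: with median scaling, Serpina1b at 0.11, Serpina3n at 0.037, Serpina7 at 0.075 and Serpinb6a at 0.075, and with array weights, Serpina1b at 0.036, Serpina3n at 1.09 and Serping1 at -0.017. With 1 array left out, Serpina1b ran from -0.59 to 0.64, Serpina1d from -0.30 to 0.53, Serpina3n from -1.27 to 0.64, Serpinb6a from -0.27 to 0.19 and Serping1 from -0.12 to 0.12. In single pairs, DDC EpCAM+ cells over wild type hepatocytes had 2 higher and 11 lower over genes above background on both arrays. Alb-Cre+/+ over wild type hepatocytes had 15 lower with median scaling and 5 with the mean of all probes. Alb-Cre+/+ over DDC EpCAM+ cells had 13 higher and 1 lower with median scaling. Alb-Cre+/- over DDC had 3 higher over genes above background on both, and MX1-Cre+/- over DDC had 4 higher with normexp background and 1 over genes above background on both. The cause of these differences was not tested. With 1 array a condition, the number of arrays limits the precision of each value.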
